A study of Homo sapiens with 12 samples.

Results

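The clustered protocadherin genes lie in 3 neighbouring groups, alpha, beta and gamma, on the long arm of chromosome 5 (5q31). Enriched DNA regions were taken as theirs where a deposited gene symbol starting with PCDHA, PCDHB or PCDHG covered the region, or where the region lay at most 5000 bases from the start of such a gene. This gave 69 of 327931 regions of 5-hydroxymethylcytosine (5hmC), of which 16 lay in the alpha, 26 in the beta and 27 in the gamma cluster. It also gave 23 of 65535 listed regions of 5-methylcytosine (5mC), of which 7, 5 and 11 lay in the alpha, beta and gamma cluster. No region carried symbols of more than 1 cluster, and each region had enough counts to be tested. At the edge of the rule, the farthest 5hmC region taken lay 4838 bases before PCDHB2 (log2 fold change −0.74), and the nearest one left out lay 8877 bases from PCDHA1 (−0.91). The 1 listed 5mC region taken by distance alone lay 3677 bases before PCDHA1 (−0.60), and the nearest one left out lay 31677 bases from it (−0.60).

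The cells were HL-60, an established human promyelocytic leukemia line, so all libraries share 1 genetic background. The differentiated state was reached by 7 days with 1.5% (211 mM) dimethyl sulfoxide (DMSO), and viable CD11b-positive cells were sorted. The undifferentiated state was grown in the same serum-supplemented medium and sorted as viable CD11b-negative cells. Each state had 3 biological replicates, and the DNA of each was divided between an antibody against 5hmC and an antibody against 5mC, so the values of both marks come from the same preparations. An antibody pull-down counts captured fragments, depends on CpG density, and gives no percentage of modified cytosines. No input library is used here, so a change of a mark, of the copy number and of the share of cells carrying the mark cannot be told apart.

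Clustered protocadherins are adhesion molecules of the cell surface, known mainly from neurons, where each cell chooses a few of them and so acquires an identity by which its branches recognise one another. Every variable exon has its own promoter. In the alpha and gamma clusters the variable exons are spliced to constant exons shared by the whole cluster, whereas each beta gene is a single exon that encodes a complete protein. Choice of a promoter is known to depend on its DNA methylation and on the looping factors CTCF and cohesin. The family is also known for coordinated promoter methylation in several tumours, among them neuroblastoma and Wilms tumour. In the deposited annotation an alpha or gamma gene runs from its own variable exon to the shared constant exons, so a region late in a cluster lies in the bodies of many genes at once. Such a region is called here by the last gene that begins before it.

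Most protocadherin promoters carry a conserved element with the core CGCT, at which CTCF binds. The promoters below are those of genes with a deposited distance of 0 between their start and a 5mC region described below. These regions were named as the largest rises of the beta and gamma clusters that passed without overlap of the states. That of PCDHB8 (log2 fold change 0.28) was still the smallest rise among the 5 listed beta regions. A distance of 0 is also given to some regions that begin shortly after a start. A promoter shown therefore need not lie inside the 5mC region, and that of PCDHGA11 appears to lie before it. The entry shown for PCDHGB1 is the earlier of its 2 entries and may also lie before its region. The starts of PCDHGA4 (log2 fold change 0.34, adjusted p = 0.0261) and PCDHGA7 (0.53, adjusted p = 0.0399) and that of the pseudogene PCDHB17 also had a higher 5mC region at a distance of 0 and are not shown. Each runs from 250 bases before to 50 bases after the start, is on the plus strand, and comes from the RefSeq table of GRCh38.p14, matched by gene symbol. Capitals mark CGCT on the gene's strand.
PCDHB7: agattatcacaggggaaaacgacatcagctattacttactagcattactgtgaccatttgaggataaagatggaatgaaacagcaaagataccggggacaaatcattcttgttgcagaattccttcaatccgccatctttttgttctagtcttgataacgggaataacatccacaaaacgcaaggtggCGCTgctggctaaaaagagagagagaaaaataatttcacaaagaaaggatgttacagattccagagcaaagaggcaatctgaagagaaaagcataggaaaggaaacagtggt
PCDHB8: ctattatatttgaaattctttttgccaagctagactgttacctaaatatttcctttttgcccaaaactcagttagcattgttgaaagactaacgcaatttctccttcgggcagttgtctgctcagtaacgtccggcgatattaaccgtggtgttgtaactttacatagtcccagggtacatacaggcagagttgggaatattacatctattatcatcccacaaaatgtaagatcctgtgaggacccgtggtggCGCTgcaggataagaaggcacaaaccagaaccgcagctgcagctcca
PCDHGB1: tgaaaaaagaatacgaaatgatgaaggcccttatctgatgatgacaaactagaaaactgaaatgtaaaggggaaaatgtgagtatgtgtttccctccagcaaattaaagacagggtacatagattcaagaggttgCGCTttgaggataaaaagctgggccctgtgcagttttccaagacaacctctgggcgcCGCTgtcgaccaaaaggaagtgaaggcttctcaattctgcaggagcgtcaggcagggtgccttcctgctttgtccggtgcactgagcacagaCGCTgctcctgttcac
PCDHGB2: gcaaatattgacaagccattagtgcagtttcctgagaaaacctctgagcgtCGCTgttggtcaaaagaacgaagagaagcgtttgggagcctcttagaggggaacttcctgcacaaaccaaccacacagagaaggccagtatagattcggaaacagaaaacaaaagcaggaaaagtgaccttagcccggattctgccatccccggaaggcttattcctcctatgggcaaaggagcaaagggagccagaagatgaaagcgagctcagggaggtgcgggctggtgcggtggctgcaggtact
PCDHGA11: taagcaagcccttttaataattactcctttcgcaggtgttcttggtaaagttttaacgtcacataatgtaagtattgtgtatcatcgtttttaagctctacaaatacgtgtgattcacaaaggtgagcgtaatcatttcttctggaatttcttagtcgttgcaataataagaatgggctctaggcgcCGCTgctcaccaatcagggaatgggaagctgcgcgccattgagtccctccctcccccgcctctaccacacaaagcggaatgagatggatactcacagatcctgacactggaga

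On GRCh38.p14 these promoters lie at chr5:141172394-141172693 (PCDHB7), chr5:141177540-141177839 (PCDHB8), chr5:141349849-141350148 (PCDHGB1, 1 of its 2 entries), chr5:141359886-141360185 (PCDHGB2) and chr5:141420801-141421100 (PCDHGA11). They hold 6, 9, 8, 10 and 12 CpG sites, in the same order. The table held 52 promoter entries for 47 clustered protocadherin genes. CGCT was found on the gene's strand in 51 of them (98.1%), against 54.3% of all 35116 entries, and on either strand (CGCT or AGCG) in 98.1%, against 70% of all entries. Between 100 and 30 bases before the start it was found in 43 entries (82.7%), against 21.6% of all. The 52 entries held a median of 7.5 CpG sites (2 to 27), against a median of 14 over all entries. No other motif was searched, and the match is a match of letters only.

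On hg19, the build of the deposited regions, the 5hmC regions of the alpha cluster ran from chr5:140161601 to 140387200, those of the beta cluster from 140469001 to 140626800 and those of the gamma cluster from 140711401 to 140893800. They covered 4.7% of the alpha, 8.37% of the beta and 11.1% of the gamma span, at 7.09, 16.5 and 14.8 regions per 100 kb. Their median width was 600 bases in the alpha and gamma clusters and 400 bases in the beta cluster. Of the 69 regions, 61 lay in a gene body and 8 lay only upstream of a gene start, 7 of these in the beta cluster. Levels are given as CPM (the count scaled to a fixed library total) after TMM scaling, which sets the libraries to a common level using the bulk of all regions. Per kb of width, the median 5hmC level was 3.31 CPM in the beta, 2.59 in the gamma and 2.57 in the alpha cluster, and 2.55 over all regions. A member region held 4 to 240 counts per library (median 32), so a single region carries a large counting error. The counts over all 5hmC regions came to between 13010267 and 32495733 per library in the differentiated and between 15688562 and 33693880 in the undifferentiated state. The listed 5mC regions held 7940755 to 9670011 counts in the differentiated and 6076100 to 6851769 in the undifferentiated libraries, which is not the depth of those libraries because the list is a selection.

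Many protocadherin regions lay in CpG islands. By the deposited distance, 25 of the 69 5hmC regions (36.2%) overlapped an island, against 1.73% of all 5hmC regions. The beta cluster had most of them, 17 of its 26 regions (65.4%), while the gamma cluster had 7 of 27 (25.9%) and the alpha cluster 1 of 16 (6.25%). Island regions fell within the bodies of 16 beta genes. Of the 23 listed 5mC regions, 15 (65.2%) overlapped an island, against 2.35% of all listed 5mC regions, and they included all 5 of the beta cluster. Of these 23 regions, 12 (52.2%) had a deposited distance of 0 to a gene start, against 1.63% of all listed 5mC regions. This distance is also 0 for some regions that begin shortly after a start, so such a region need not cover it. Among the 5hmC regions 2 of 69 (2.9%) had a distance of 0, against 1.7% of all.

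Each region was compared between the states with edgeR's quasi-likelihood test on the whole table of its mark (3 libraries per state, Benjamini-Hochberg adjustment, threshold 0.05), and fold changes are differentiated over undifferentiated. In 5hmC, 19 member regions were higher (27.5%), 19 were lower (27.5%) and 31 did not pass. Over all tested 5hmC regions 27% were higher and 23.3% lower, 50.3% in either direction, so the counts for the whole family were near the background. In 36 of the 69 regions (52.2%) all libraries of one state lay above those of the other, as in 52.2% of all regions. The counts depended on single libraries. They were 10 higher and 13 lower without differentiated replicate 1, 7 and 8 without differentiated replicate 3, 9 and 8 without undifferentiated replicate 1, and 11 and 15 without undifferentiated replicate 3. They also depended on the scaling: library totals in place of TMM gave 4 higher and 27 lower, and TMM on strong regions gave 1 and 29. The counts over all 5hmC regions moved as well, from 88582 higher and 76327 lower in the main fit. They were 69008 and 53644 without differentiated replicate 1, and 61888 and 43368 without differentiated replicate 3. Without undifferentiated replicate 1 they were 57399 and 45478, and without undifferentiated replicate 3 75351 and 62147. Library totals gave 46026 and 118325, and TMM on strong regions 33312 and 134429. These scalings moved the median log2 fold change over all 5hmC regions to −0.25 and −0.33, against −0.04 under TMM. A direction below is therefore one relative to the bulk of regions, and ratios formed within a library are given where possible because no scaling factor enters them. A ratio to nearly all other regions is still close to scaling by library totals.

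**Figure D1:**
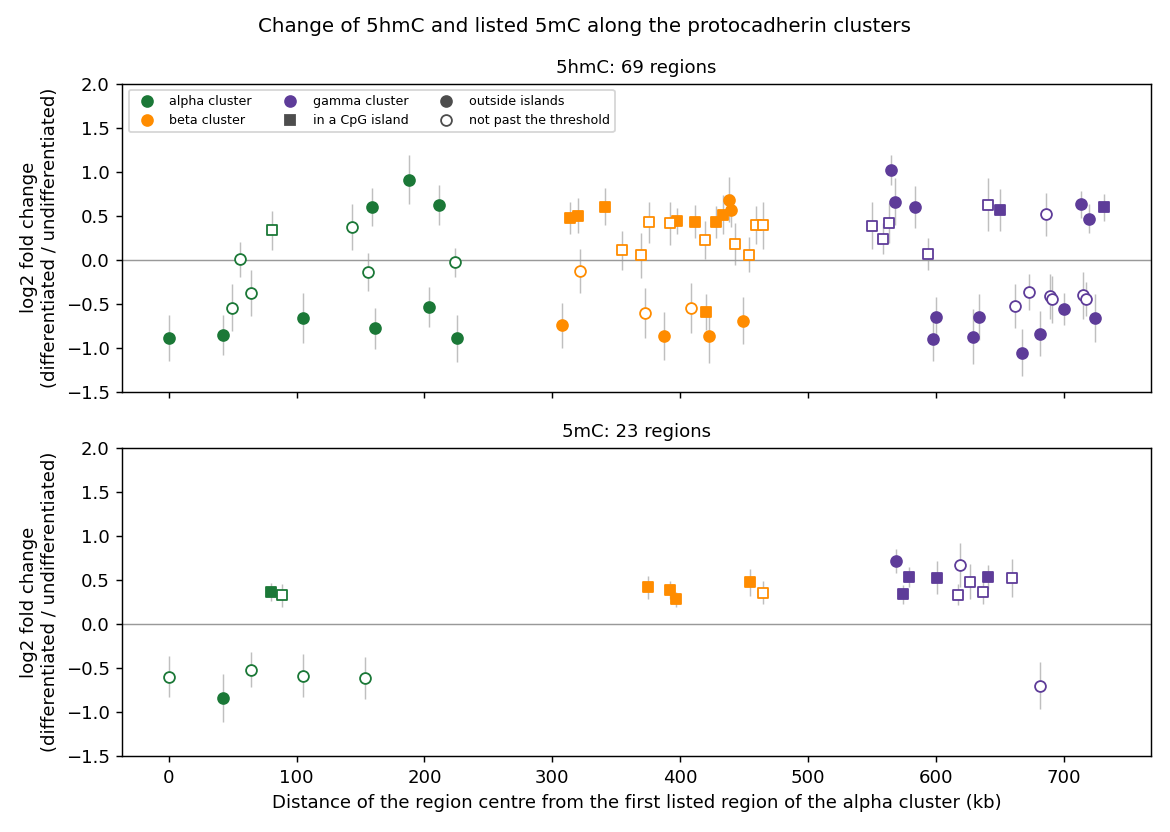
Log2 fold change (differentiated over undifferentiated, TMM scaling, vertical axis, bars SE) of the 69 5hmC regions (upper panel) and the 23 listed 5mC regions (lower panel) against the distance in kb from the first region of the alpha cluster. Squares mark CpG island regions, filled symbols an adjusted p under 0.05; 24 of the 25 island 5hmC squares lie above 0, and under the other scalings all values move down together.

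The regions inside CpG islands and those outside them went different ways. This division was made after the values had been seen and is described without a test. Of the 25 island regions of 5hmC, 24 had a positive log2 fold change; 9 passed as higher and 1 as lower, with a median of 0.42. Of the 44 regions outside islands, 31 had a negative one; 10 passed as higher and 18 as lower, with a median of −0.49. The same held for regions within 2 kb of an island (median −0.53, 16 regions) and for those farther away (median −0.45, 28 regions). Island regions elsewhere in the genome had a median of 0.38, with 42.2% higher and 3.77% lower among 5650. Regions outside islands elsewhere had a median of −0.06, with 26.7% higher and 23.6% lower among 322181.

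Summed over the regions, the log2 ratio of island to non-island 5hmC counts was −0.19, −0.34 and −0.17 in differentiated replicates 1, 2 and 3, against −0.66, −0.66 and −0.71 in the undifferentiated replicates. All differentiated libraries lay above all undifferentiated ones, and the difference of means was 0.44; it ranged between 0.41 and 0.49 when each library was left out in turn. Within the beta cluster the ratio averaged 1.89 ± 0.05 in differentiated and 1.36 ± 0.03 in undifferentiated libraries (SD, n = 3 each). In the gamma cluster it averaged −1.05 ± 0.21 in differentiated and −1.46 ± 0.10 in undifferentiated libraries, again without overlap. The single island region of the alpha cluster, in PCDHA10, had states that overlapped. Set against all other island regions of the same library, the island protocadherin regions had a mean log2 ratio of −9.19 ± 0.10 in differentiated and −9.29 ± 0.03 in undifferentiated libraries, and the states overlapped. Set against all other regions outside islands, the protocadherin regions outside islands had −13.89 ± 0.07 in differentiated and −13.56 ± 0.04 in undifferentiated libraries, a difference of −0.33 without overlap. That denominator holds most of the library, so this difference is close to one scaled by library totals. Under TMM the sums outside islands had smaller log2 fold changes, −0.17 in the alpha, −0.20 in the beta and −0.04 in the gamma cluster. Without TMM 1 island region was higher and 1 lower, and 3 regions outside islands were higher and 26 lower.

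**Figure D2:**
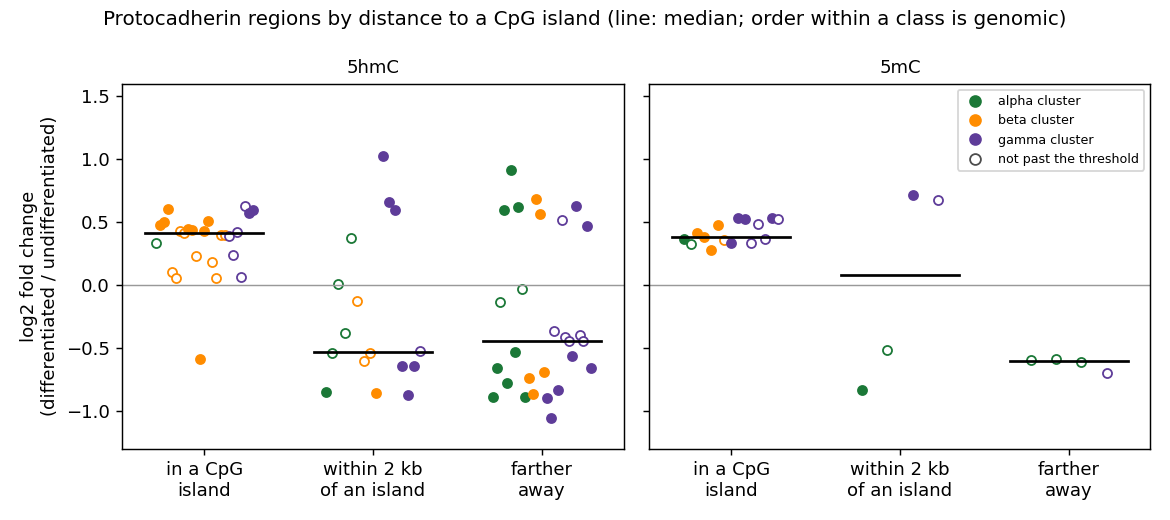
Log2 fold change of each protocadherin region (differentiated over undifferentiated, TMM scaling) by whether it overlaps a CpG island, lies within 2 kb of one or lies farther away, with the median as a line; 5hmC left, listed 5mC right. The 5hmC medians are 0.42, −0.53 and −0.45, and the other scalings lower all values together.

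Counts were also summed over the regions of each cluster. The beta sum was 50.7, 50.1 and 50.0 CPM in the differentiated libraries, against 44.7, 42.3 and 45.3 CPM in the undifferentiated libraries. The states did not overlap, and the log2 fold change was 0.19 (SE 0.05, adjusted p = 0.00821, edgeR's quasi-likelihood test over 20377 genes and clusters, of which 27.6% were higher and 24.2% lower), but it was −0.03 with library totals and −0.11 with TMM on strong regions. The alpha sum was 23.1, 26.1 and 24.2 CPM in the differentiated libraries, against 27.1, 26.0 and 27.4 CPM in the undifferentiated libraries, a log2 fold change of −0.14 (SE 0.06) that missed the threshold (adjusted p = 0.0641, same test). It passed without differentiated replicate 2 (−0.18, adjusted p = 0.0179). The gamma sum averaged 52.7 ± 1.74 CPM in differentiated and 49.5 ± 1.92 CPM in undifferentiated libraries (SD, n = 3), with a log2 fold change of 0.09 (adjusted p = 0.161) that turned negative under both other scalings (−0.13 and −0.21).

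Between clusters, the log2 ratio of alpha to beta 5hmC counts was −1.13, −0.94 and −1.05 in differentiated replicates 1 to 3, against −0.72, −0.70 and −0.73 in the undifferentiated ones. The states did not overlap, the difference was −0.32, and p was 0.1 by a two-sided exact permutation test, the smallest that 3 against 3 libraries can give (0.15 after adjustment over the 3 pairs). The alpha to gamma ratio differed by −0.23 (p = 0.1, adjusted 0.15, the same exact test) and the gamma to beta ratio by −0.10 with overlapping states (p = 0.2, adjusted 0.2, the same exact test). When only regions outside islands were summed, the alpha to beta difference was 0.05 and the gamma to beta difference 0.18. Outside islands the log2 fold change of the sums was −0.20 in the beta cluster, −0.17 in the alpha cluster and −0.04 in the gamma cluster, again given without a test. The beta islands alone gave 39.9, 39.8 and 39.2 CPM in differentiated libraries, against 32.4, 30.3 and 32.7 CPM in undifferentiated libraries.

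**Figure D3:**
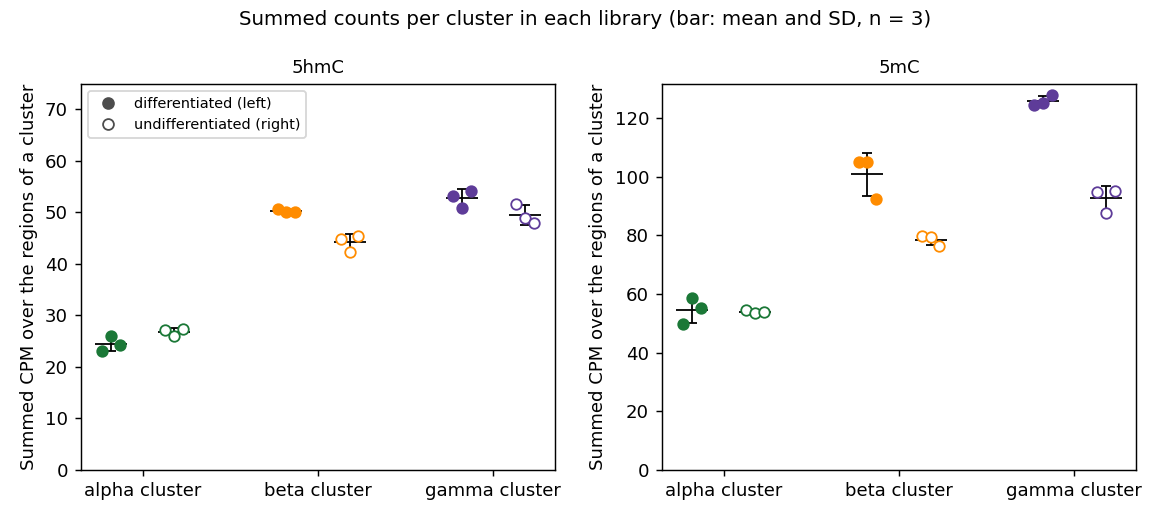
Summed CPM (TMM scaling) over the regions of each cluster in every library, for 5hmC (left) and listed 5mC (right), with filled points for differentiated and open points for undifferentiated libraries; bars are mean and SD (n = 3). The 5hmC beta sums lie between 50.0 and 50.7 CPM in differentiated and between 42.3 and 45.3 CPM in undifferentiated libraries, a direction that turns under the other scalings.

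Most rises and falls named below were chosen among regions that passed without overlap of the states. Where so chosen, the lack of overlap follows from the choice. The alpha cluster held 3 higher and 6 lower 5hmC regions among 16 (18.8% and 37.5%, beside 27% and 23.3% of all tested 5hmC regions). Its strongest fall within gene bodies lay late in the cluster, at chr5:140386801-140387200, inside PCDHAC2, a C-type isoform that mice need for the even spacing of serotonergic axons. That region had 0.676, 0.806 and 0.939 CPM in differentiated libraries, against 1.76, 1.16 and 1.63 CPM in undifferentiated libraries. The states did not overlap (log2 fold change −0.89, SE 0.26, adjusted p = 0.00527), though the call was lost without undifferentiated replicate 1. Upstream of PCDHA1, the first gene of the cluster, the region at chr5:140161601-140162200, 3677 bases before the start, had 0.902, 0.716 and 0.939 CPM in differentiated libraries, against 1.22, 2.03 and 1.93 CPM in undifferentiated libraries (log2 fold change −0.89, SE 0.26, adjusted p = 0.00513). This call held when each library was left out in turn. The region with the highest level per kb of the cluster, at chr5:140204001-140204400 in PCDHA5, was also lower (log2 fold change −0.85, SE 0.23, adjusted p = 0.00213), a call lost without differentiated replicate 3.

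The rises of the alpha cluster lay in its late part as well. At chr5:140349401-140350200 in PCDHAC2, 5hmC was 1.30, 1.16 and 1.47 CPM in differentiated libraries, against 0.651, 0.723 and 0.845 CPM in undifferentiated libraries. All differentiated libraries lay higher (log2 fold change 0.91, SE 0.27, adjusted p = 0.00577), but the call was lost without differentiated replicate 3 or undifferentiated replicate 1. At chr5:140320601-140321200 in PCDHAC1, the other C-type gene of the cluster, the log2 fold change was 0.60 (SE 0.22, adjusted p = 0.0192), lost without differentiated replicate 2 or undifferentiated replicate 1. Over the last 37.8 kb of regions, in the bodies of all 15 alpha genes, 5 regions split into 2 higher, 2 lower and 1 that did not pass. By the deposited distances, no region of either mark lay within 1000 bases of the start of a C-type gene.

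In the beta cluster 9 regions were higher and 5 lower among 26 (34.6% and 19.2%, beside 27% and 23.3% of all tested 5hmC regions). Of the 9, 7 lay in islands within gene bodies, while 4 of the 5 lower regions lay upstream of a gene start and outside islands. The strongest 5hmC level of all the protocadherin regions was at chr5:140558601-140559200 in PCDHB8, with 6.93, 8.15 and 7.52 CPM in differentiated libraries, against 6.27, 5.35 and 4.53 CPM in undifferentiated libraries. Its log2 fold change was 0.45 (SE 0.15, adjusted p = 0.0112), and the call was lost without undifferentiated replicate 3 and under both other scalings. Per kb this region reached 10.8 CPM on average, against 6.28 CPM for the PCDHB12 island region, the next in level in the cluster's islands. Beta genes are close in sequence and the handling of reads that match several copies is not stated in the labels, so the level of a single copy is uncertain.

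Among the called beta island regions whose states did not overlap, the largest log2 fold changes were in PCDHB3 and PCDHB2. Island regions in PCDHB4 (0.60, adjusted p = 0.0163) and PCDHB13 (0.51, adjusted p = 0.0469) had larger ones, with states that overlapped. In PCDHB3 (chr5:140481401-140481800) 5hmC was 2.25, 2.60 and 2.44 CPM in differentiated libraries, against 1.82, 1.45 and 1.81 CPM in undifferentiated libraries (log2 fold change 0.50, SE 0.20, adjusted p = 0.0309). In PCDHB2 (chr5:140475401-140476000) it was 2.93, 2.42 and 2.88 CPM in differentiated libraries, against a mean of 2.01 ± 0.171 CPM in undifferentiated libraries (log2 fold change 0.48, SE 0.18, adjusted p = 0.0279). In both the states did not overlap, yet the PCDHB3 call was lost without differentiated replicate 3, undifferentiated replicate 1 or undifferentiated replicate 2, and the PCDHB2 call without any single one of differentiated replicates 1 and 3 and undifferentiated replicates 1 and 2. Among the 17 island regions of beta gene bodies the log2 fold change ranged from −0.59 to 0.60. The one below 0, at chr5:140581601-140582400 in PCDHB11, was picked out after its values had been seen: it had 2.14, 0.627 and 2.10 CPM in differentiated libraries, against 2.50, 2.60 and 3.26 CPM in undifferentiated libraries. Differentiated replicate 2 stood far below the others, and no island region was called lower without it or without undifferentiated replicate 3.

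Between the beta genes the picture was mixed. The region 3444 bases before the start of PCDHB7 (chr5:140548401-140548800) had 0.733, 0.448 and 0.877 CPM in differentiated libraries, against 1.47, 1.30 and 1.27 CPM in undifferentiated libraries (log2 fold change −0.86, SE 0.27, adjusted p = 0.00865). All differentiated libraries were lower, and the call was lost without undifferentiated replicate 1. Lower regions also lay 4838 bases before PCDHB2 (log2 fold change −0.74, adjusted p = 0.0154) and 2939 bases before PCDHB18, a pseudogene in humans (−0.69, adjusted p = 0.027). The first call was lost without differentiated replicate 3 or undifferentiated replicate 3, the second without differentiated replicate 1, differentiated replicate 2 or undifferentiated replicate 2. Upstream of PCDHB14 the direction was the opposite one: 3079 bases before its start, at chr5:140599201-140600000, 5hmC was 1.52, 1.97 and 1.47 CPM in differentiated libraries, against 0.868, 1.35 and 0.785 CPM in undifferentiated libraries (log2 fold change 0.68, SE 0.25, adjusted p = 0.0224). This call was lost without differentiated replicate 2, undifferentiated replicate 1 or undifferentiated replicate 3.

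In the gamma cluster 7 regions were higher and 8 lower among 27 (25.9% and 29.6%, beside 27% and 23.3% of all tested 5hmC regions). The clearest rise of any protocadherin region was at chr5:140726401-140727000 in PCDHGA3, 510 bases from an island and 2829 bases before the start of PCDHGB1. It had 4.28, 5.73 and 3.98 CPM in differentiated libraries, against 2.42, 1.74 and 2.35 CPM in undifferentiated libraries. The lowest differentiated library lay above the highest undifferentiated one by more than 1 CPM, and the log2 fold change was 1.02 (SE 0.17, adjusted p = 9.34e-06); the call held in every fit tried, including library totals, TMM on strong regions, DESeq2 and each left-out library. The next region, at the start of PCDHGB1 (chr5:140729801-140730200), was also higher (log2 fold change 0.66, SE 0.27, adjusted p = 0.0365), but not without differentiated replicate 1, differentiated replicate 3 or undifferentiated replicate 3.

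Late in the gamma cluster, in the bodies of all 22 gamma genes, 6 regions spanned 18.8 kb and split into 3 higher, 1 lower and 2 that did not pass. The first of them, at chr5:140875001-140875800 and called by PCDHGC5, whose protein binds GABA-A receptors in rat neurons, had the highest 5hmC level per kb of the cluster. It had 5.47, 5.55 and 5.64 CPM in differentiated libraries, against 3.55, 3.47 and 3.80 CPM in undifferentiated libraries. The libraries of each state lay close together and far from those of the other (log2 fold change 0.63, SE 0.15, adjusted p = 0.000818). The difference held when each library was left out in turn and was 0.34 (adjusted p = 0.0543) with TMM on strong regions.

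The largest falls of 5hmC in the gamma cluster lay between these points. At chr5:140829001-140829800 in PCDHGA12, a gene whose promoter is known to be methylated in lung cancer, 5hmC was 0.902, 0.627 and 0.720 CPM in differentiated libraries, against 1.57, 1.69 and 1.45 CPM in undifferentiated libraries. The states were far apart (log2 fold change −1.05, SE 0.27, adjusted p = 0.00135). This region lies in the bodies of 19 gamma genes and 7313 bases from an island, so its values are not those of a single gene's promoter. At chr5:140759201-140759800 in PCDHGA6 it was 0.902, 0.985 and 0.908 CPM in differentiated libraries, against 1.79, 1.64 and 1.69 CPM in undifferentiated libraries (log2 fold change −0.90, SE 0.25, adjusted p = 0.00306). Both calls held when each library was left out in turn. The region at chr5:140790201-140790600 in PCDHGB6 was lower (log2 fold change −0.87, SE 0.31, adjusted p = 0.0186), lost without differentiated replicate 1, differentiated replicate 3 or undifferentiated replicate 1. Across the 3 clusters the 19 higher regions had a median level of 3.94 CPM per kb and a median width of 600 bases, and the 19 lower regions 2.54 CPM per kb and 400 bases.

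**Figure D4:**
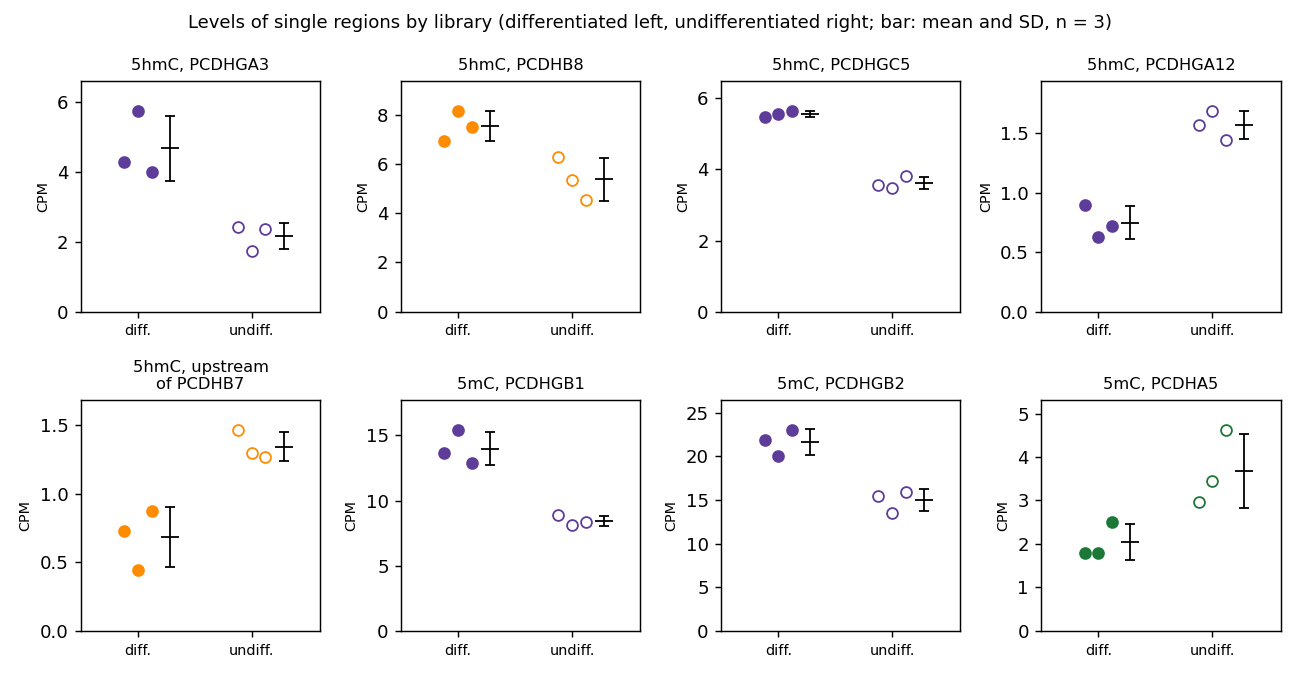
CPM (TMM scaling) of 8 protocadherin regions in each differentiated library (left, filled) and each undifferentiated library (right, open), with mean and SD (n = 3 each). The states do not overlap in any of the 8 panels. All but the PCDHB8 region, named for its level per kb, were chosen among regions without overlap, so this follows from the choice. Over all regions the states did not overlap in 52.2% for 5hmC and 86.1% for listed 5mC. The PCDHGA3 region lies between 3.98 and 5.73 CPM in differentiated and between 1.74 and 2.42 CPM in undifferentiated libraries.

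The deposited 5mC regions had been selected by their p-values, so their calls say which way a listed region went and nothing of the share of the locus that changed. Of the 23 listed regions 10 were higher, 1 was lower and 12 did not pass after adjustment over the number of tests the deposited p-values imply. Over the whole list 35.7% were higher and 37.1% lower, 72.7% in either direction, and in 86.1% the states did not overlap. The number higher was 4 without differentiated replicate 2, and the 1 lower region did not pass without differentiated replicate 1 or 2 or undifferentiated replicate 2 or 3, while 2 passed as lower without differentiated replicate 3. With library totals or with TMM on strong regions, 1 was higher and 6 were lower, and the median log2 fold change over the list was −0.03 and −0.06, against 0.22 under TMM. The whole list moved as well, from 23374 higher and 24294 lower in the main fit. Its counts were 15162 and 15288 without differentiated replicate 2, 2494 and 32689 with library totals, and 1985 and 32685 with TMM on strong regions. All 15 island regions had a positive log2 fold change under TMM (median 0.38, 9 higher), beside a median of 0.39 for the 1526 other listed island regions, of which 70.8% were higher and 8.78% lower. Of the 8 regions outside islands 1 was higher and 1 lower (median −0.59), beside a median of −0.31 for the other listed regions outside islands, of which 34.8% were higher and 37.8% lower. The log2 ratio of island to non-island 5mC counts was 2.82, 2.85 and 2.68 in differentiated replicates 1 to 3, against 2.30, 2.24 and 2.35 in undifferentiated replicates. Set against all other listed island regions, the island protocadherin regions averaged −7.985 ± 0.059 in differentiated and −8.214 ± 0.029 in undifferentiated libraries. The difference was 0.23, without overlap. Outside islands the same comparison gave a difference of −0.36, also without overlap.

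The listed 5mC of the gamma cluster summed to 124.5, 125.3 and 127.9 CPM in differentiated libraries, against 95.0, 87.7 and 95.2 CPM in undifferentiated libraries (log2 fold change 0.44, SE 0.05, adjusted p = 2.97e-13, edgeR's quasi-likelihood test over 12618 genes and clusters of listed regions, of which 38.8% were higher and 45% lower). It kept its direction with library totals (0.19) and TMM on strong regions (0.16). The regions summed were listed for a small p-value in this same comparison of the same libraries. The p-values of the 5mC sums and ratios given here can therefore be too small and are no independent evidence of a change. The beta sum was 105.0, 105.1 and 92.3 CPM in differentiated libraries, against 79.9, 79.3 and 76.4 CPM in undifferentiated libraries (log2 fold change 0.36, SE 0.05, adjusted p = 1.26e-08, same test), and was 0.10 with library totals and 0.08 with TMM on strong regions, where it did not pass. The alpha sum averaged 54.6 ± 4.51 CPM in differentiated and 53.9 ± 0.617 CPM in undifferentiated libraries (log2 fold change 0.01, adjusted p = 0.871). Divided by islands, and without a test, the alpha sum had a log2 fold change of 0.35 over its 2 island regions and of −0.61 over the 5 regions outside islands. The gamma sum had 0.44 over 8 island regions and 0.47 over 3 regions outside islands, and its log2 ratio of island to non-island counts averaged 2.35 ± 0.07 in differentiated and 2.38 ± 0.20 in undifferentiated libraries, with overlapping states. The alpha to gamma ratio of listed 5mC differed by −0.43 between the states and the alpha to beta ratio by −0.34 (exact permutation p = 0.1 each, adjusted 0.15), and the gamma to beta ratio by 0.09 with overlapping states (exact permutation p = 0.5).

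Most of the named 5mC regions had a deposited distance of 0 to a gene start. At chr5:140729801-140730800, over the start of PCDHGB1 and 441 bases from an island, 5mC was 13.6, 15.4 and 12.9 CPM in differentiated libraries, against 8.89, 8.11 and 8.37 CPM in undifferentiated libraries. All differentiated libraries were higher (log2 fold change 0.72, SE 0.14, adjusted p = 0.000165), and the call held in every fit tried. Over the start of PCDHGB2 (chr5:140739601-140742200) it was 21.9, 20.1 and 23.0 CPM in differentiated libraries, against 15.5, 13.5 and 15.9 CPM in undifferentiated libraries (log2 fold change 0.53, SE 0.11, adjusted p = 0.000402). At PCDHGA11 (chr5:140801201-140803200, at a deposited distance of 0 from its start), a gene known for promoter methylation in astrocytoma, it was 14.1, 14.3 and 14.9 CPM in differentiated libraries, against 10.8, 8.86 and 10.1 CPM in undifferentiated libraries (log2 fold change 0.54, SE 0.13, adjusted p = 0.00336). Both calls held when each library was left out in turn, and neither passed with library totals or TMM on strong regions.

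The beta starts named had smaller log2 fold changes than the gamma starts named above, which were the largest of their cluster. Of the other gamma starts, PCDHGA4 (0.34), PCDHGB5 (0.33) and PCDHGB7 (0.36) lay below those of PCDHB7 and PCDHB17. PCDHGA7 (0.53) and PCDHGB6 (0.48) lay above them. PCDHGB5, PCDHGB6 and PCDHGB7 did not pass. Over the PCDHB7 start (chr5:140552201-140555000) 5mC was 24.3, 27.9 and 23.1 CPM in differentiated libraries, against 18.1, 20.3 and 19.2 CPM in undifferentiated libraries (log2 fold change 0.38, SE 0.10, adjusted p = 0.00606), a call lost without differentiated replicate 2. Over the start of PCDHB8 (chr5:140557001-140560000) it was 35.6, 35.6 and 32.8 CPM in differentiated libraries, against 31.1, 28.2 and 26.1 CPM in undifferentiated libraries (log2 fold change 0.28, SE 0.09, adjusted p = 0.0218). That call was lost without differentiated replicate 1 or 2 or undifferentiated replicate 2 or 3, and the log2 fold change was 0.02 with library totals. The region next to the start of PCDHB17, a pseudogene in humans, was higher (log2 fold change 0.42, SE 0.13, adjusted p = 0.0174), lost without differentiated replicate 1 or 3 or undifferentiated replicate 2.

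In the alpha cluster the island region in PCDHA10 (chr5:140240201-140243600) had 22.3, 28.7 and 24.5 CPM of 5mC in differentiated libraries, against 19.0, 18.8 and 20.5 CPM in undifferentiated libraries (log2 fold change 0.36, SE 0.10, adjusted p = 0.00964; 0.27 and not passing without differentiated replicate 2). The region in PCDHA5 at chr5:140204001-140204400 was the only listed one that passed as lower. It had 1.80, 1.79 and 2.52 CPM in differentiated libraries, against 2.96, 3.46 and 4.62 CPM in undifferentiated libraries (log2 fold change −0.84, SE 0.27, adjusted p = 0.0269), and it did not pass without differentiated replicate 1 or 2 or undifferentiated replicate 2 or 3. The region upstream of PCDHA1, with the highest 5mC per kb of the cluster, did not pass (log2 fold change −0.60, adjusted p = 0.0678).

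Of the 23 listed 5mC regions 13 (56.5%) shared at least 1 base with a 5hmC region, and these 5hmC regions were 13 of 69 (18.8%). Both marks come from the same DNA preparations, so their values are given side by side only. In PCDHB8 the log2 fold change was 0.45 for 5hmC and 0.28 for 5mC, and at PCDHGB1 it was 0.66 and 0.72; these are the 2 pairs in which both passed as higher. In PCDHA5 it was −0.85 for 5hmC and −0.84 for 5mC, the 1 pair in which both passed as lower. Within the body of PCDHGA12 (chr5:140842801-140843200) 5hmC was lower (−0.84, adjusted p = 0.0071) and the overlapping 5mC region had −0.70 and did not pass (adjusted p = 0.0571). In the PCDHB18 island 5mC was higher (0.47, adjusted p = 0.0272), and 5hmC had 0.06 (adjusted p = 0.808).

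**Figure D5:**
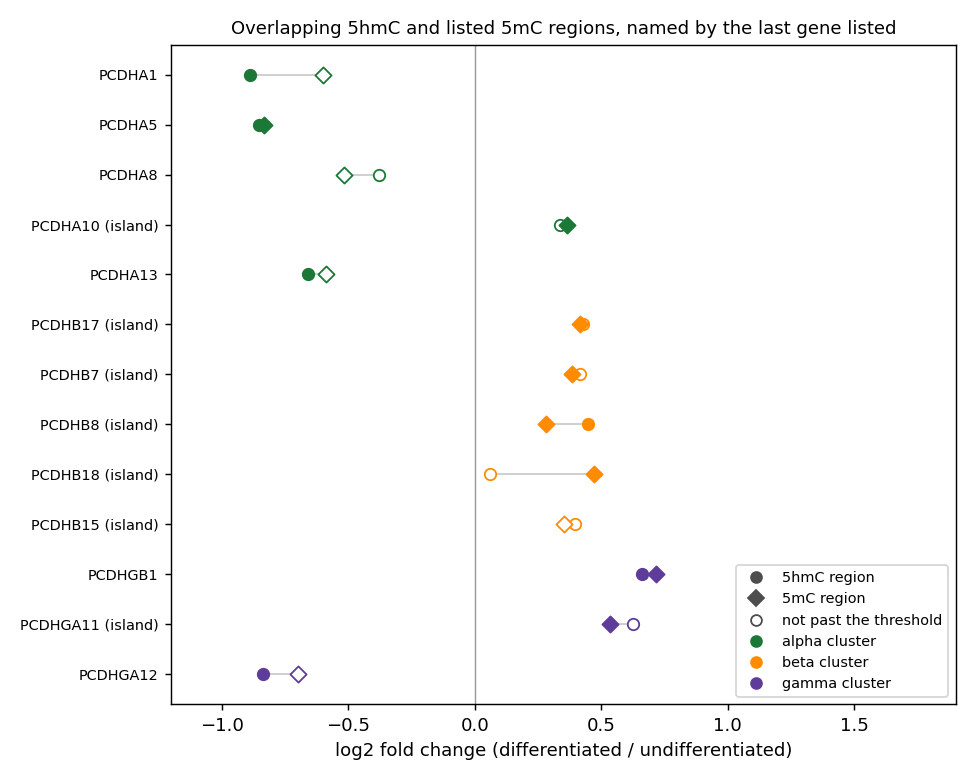
Log2 fold change (differentiated over undifferentiated, TMM scaling) of the 13 pairs of overlapping 5hmC (circles) and listed 5mC (diamonds) regions, in genomic order and called by the last gene that begins before the region; filled symbols have an adjusted p under 0.05. The 3 pairs filled in both marks are PCDHA5, PCDHB8 and PCDHGB1, and the other scalings lower all values together.

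Genes outside the clusters were taken from 4 lists and tested on counts summed over the regions in each gene body or within 5000 bases of its start, with the same test over all genes. The non-clustered protocadherins, which are single adhesion genes on other chromosomes or elsewhere on chromosome 5, were mostly higher in 5hmC: of 11 tested, 10 rose and none fell (6 and none with library totals, 3 and none with TMM on strong regions), with a median log2 fold change of 0.60 against 0.03 over all genes, of which 27.6% were higher and 24.2% lower. PCDH20, with 1 region, averaged 2.70 ± 0.796 CPM in differentiated and 1.35 ± 0.057 CPM in undifferentiated libraries (log2 fold change 0.88, SE 0.22, adjusted p = 0.00507). PCDH11X, an X-linked gene with 14 regions, averaged 39.4 ± 1.34 CPM in differentiated and 24.1 ± 0.748 CPM in undifferentiated libraries (log2 fold change 0.71, SE 0.06, adjusted p = 1.55e-05). PCDH8, with 1 region, rose by 0.77 (adjusted p = 0.0128; 0.0646 without differentiated replicate 3) and did not pass under either other scaling. In the listed 5mC all 6 matched genes were higher under TMM, against 38.8% of all listed genes, and 4 were higher under each of the other scalings. The largest 5mC change was that of PCDH8, with 5.53 ± 0.384 CPM in differentiated and 2.20 ± 0.341 CPM in undifferentiated libraries (log2 fold change 1.33, adjusted p = 1.93e-06), followed by PCDH11X (0.67) and PCDH7 (0.57).

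Of 20 regulators of protocadherin promoter choice and of DNA methylation, 1 was higher and 12 were lower in 5hmC, against 27.6% and 24.2% of all genes (median −0.25; none higher and 16 lower with library totals, none and 18 with TMM on strong regions). The number higher ranged between 0 and 3 when each library was left out: it was 3 without differentiated replicate 2, 2 without undifferentiated replicate 2 and 0 without differentiated replicate 3 or undifferentiated replicate 3. SMC3, a cohesin subunit, fell by 0.70 (5hmC log2 fold change −0.70, adjusted p = 0.00392), PDS5A, a cohesin regulator, had −0.48 (adjusted p = 3.78e-05) and SETDB1, a histone methyltransferase, −0.42 (adjusted p = 0.000146). WIZ, a zinc-finger protein of the G9a/GLP histone methyltransferase complex, was higher by 0.22 (adjusted p = 0.0225), but had −0.07 with TMM on strong regions and did not pass without differentiated replicate 3 or undifferentiated replicate 3. In listed 5mC 5 were higher and 12 lower, against 38.8% and 45% of all listed genes, and none and 15 with either other scaling. The largest 5mC falls were in TET1 (−0.79) and TET2 (−0.78), which encode oxidases that convert 5mC to 5hmC, and in RAD21, a cohesin subunit (−0.76; adjusted p = 0.0584 without undifferentiated replicate 1). The largest 5mC rises were in WIZ (0.52), SMC3 (0.49) and REST (0.33), a repressor of neuronal genes; none of these rises passed with library totals, and that of WIZ did not pass without differentiated replicate 1 or 2 or undifferentiated replicate 1 or 3.

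Among 15 partners of protocadherin signaling, 4 were higher and 4 lower in 5hmC, near the 27.6% and 24.2% of all genes (2 and 9 with library totals, 1 and 10 with TMM on strong regions), and 2 were higher without undifferentiated replicate 1 or 2. The kinase substrate gene MARCKS had a 5hmC log2 fold change of 0.67 (adjusted p = 0.000857). PTK2B, a focal adhesion kinase bound by protocadherins, had 0.44, which was 0.14 and did not pass with TMM on strong regions. RET had 0.25, which was −0.05 with TMM on strong regions and did not pass without undifferentiated replicate 1 or 2. WASF2 (−0.42), CYFIP1 (−0.34) and PTK2 (−0.22), which act in actin assembly and adhesion, were lower. In listed 5mC 7 were higher and 6 lower, against 38.8% and 45% of all listed genes (4 and 7 with library totals, 3 and 7 with TMM on strong regions). The largest changes were those of MARCKS (0.88), CYFIP2 (0.59) and RET (0.56, not passing with TMM on strong regions) upward and of FYN (−0.97), NCKAP1 (−0.96) and ABI1 (−0.52) downward.

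Of 15 neighbours on 5q31 with 5hmC regions, 2 were higher and 4 lower, against 27.6% and 24.2% of all genes. Library totals gave 1 higher and 6 lower, and TMM on strong regions none and 7. FCHSD1 (0.49, adjusted p = 0.000443) and ARAP3 (0.28, adjusted p = 0.00201) were the higher ones. With TMM on strong regions they had 0.20 and −0.01, and neither passed. RNF14 (−0.57), NDUFA2 (−0.52) and RELL2 (−0.45) were the lowest. RNF14 did not pass without differentiated replicate 1 or undifferentiated replicate 1, NDUFA2 without differentiated replicate 3 or undifferentiated replicate 2, and RELL2 without any one of differentiated replicates 2 and 3 and undifferentiated replicates 1, 2 and 3. The number lower was 2 without differentiated replicate 1 or 3 or undifferentiated replicate 1 or 2. Of 7 neighbours with listed 5mC, 3 were higher, led by FCHSD1 (0.88), and 3 lower, led by RELL2 (−0.76), against 38.8% and 45% of all listed genes; IK and NDUFA2 (both −0.55) share the same regions. For orientation, ITGAM, which encodes the CD11b on which the cells were sorted, had a 5hmC log2 fold change of 0.19 (adjusted p = 0.0198) and a listed 5mC one of 0.11 (adjusted p = 0.0498).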

How the data were processed

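5hmC and 5mC were captured with antibodies and sequenced in 6 libraries each. Tools named in the submitters' processing notes, with no role given, are edgeR 2.11, SICER 1.1, SAMtools 0.1.18, bedtools 2.17.0 and BWA; the build is hg19. The authors deposited, for each mark, unnormalized read counts per enriched region on a 200-base grid. The deposited tables also give the authors' log2 fold change (undifferentiated over differentiated), a p-value and an adjusted p-value. Distances to genes, starts and islands are used as in the deposited tables; their annotation source is not stated in the labels. The 5mC table is a selection, with a largest deposited p-value of 0.0165 and a largest adjusted p-value of 0.0826, which imply 328588 tests. Of 327949 listed 5hmC regions, 18 without values were left out.

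Deposited counts were tested with edgeR 4.0.16 (R 4.3.3): filterByExpr, TMM on all regions, and the quasi-likelihood F test on the whole table (327900 5hmC and 65529 5mC regions tested), with Benjamini-Hochberg adjustment over all tests (over the implied number for 5mC regions) and a threshold of 0.05. SE is the fold change divided by the root of the F statistic. P-values of the selected 5mC regions and of sums over them can be too small. Sums per cluster replaced the single clustered genes in the table of genes. Ratios between clusters were tested by exact permutation over libraries. Alternatives were library totals, TMM on the strongest 10% of regions, DESeq2 1.42.0, no filter, a replicate block, each library left out, other membership rules and the authors' adjusted p-values. The fit was tested on simulated data. Named regions are, per mark and cluster, up to 3 largest rises and 3 largest falls that passed without overlap of the states, and the region with the highest level per kb; genes outside the clusters are up to 3 largest rises and falls per list. The members and lists were chosen with earlier results of these data known. P-values measure the spread between 3 biological replicates, and counting error alone is not all of the error.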

Additional observations from a re-analysis of the deposited data

How the results depend on the processing

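Scaling moved many calls and turned the direction of the 5hmC beta and gamma sums and the 5mC alpha sum. With library totals in place of TMM, the log2 fold change of the 5hmC sums was −0.36 in the alpha (adjusted p = 0.000681), −0.033 in the beta and −0.13 in the gamma cluster, and with TMM on strong regions −0.43 (adjusted p = 3.47e-05), −0.11 and −0.21 (adjusted p = 0.0194). The 5mC alpha sum was −0.24 and −0.27 under these scalings, both past the threshold, and the 5mC beta sum 0.10 and 0.077, neither past it. Member regions called higher and lower in 5hmC were 4 and 27 with library totals, 1 and 29 with TMM on strong regions and 3 and 4 by DESeq2; in 5mC they were 1 and 6, 1 and 6, and 2 and 0 (10 and 1 by edgeR). Adjusted over the listed regions only, 17 and 6 5mC regions passed. Over all regions, DESeq2 called 43228 higher and 23256 lower in 5hmC, and 1954 and 1454 in listed 5mC. Genes of the outside lists called higher and lower in 5hmC were 9 and 31 with library totals and 4 and 35 with TMM on strong regions, against 17 and 20; the 5mC genes called higher were 11 and 10, against 21. With TMM on strong regions, WIZ (−0.068), RET (−0.053) and ARAP3 (−0.013) turned in 5hmC.

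Summing only regions outside CpG islands gave −0.17 for the alpha, −0.20 for the beta and −0.039 for the gamma 5hmC sum, −0.61 for the 5mC alpha sum, and differences of 0.047 (alpha to beta) and 0.18 (gamma to beta) in the 5hmC ratios; for the 5mC beta cluster this setting gave no value, as all its regions lie in islands. The cause of these changes was not tested, except that leaving out regions changes what is summed.

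Leaving out each library in turn, member 5hmC regions called higher ranged from 7 to 18 and lower from 8 to 18, member 5mC regions called higher from 4 to 8 and lower from 0 to 2. Over all regions these ranges were 57399 to 90314 and 43368 to 78418 in 5hmC, and 14130 to 15162 and 14949 to 15543 in listed 5mC. The alpha sums ranged from −0.18 to −0.10 (5hmC) and from −0.039 to 0.074 (5mC). Of 27 named regions none changed sign under any alternative, and 21 missed the threshold under at least 1. Between same-numbered libraries of the states, the correlations of deviations were −0.0002, −0.11 and −0.12 for 5hmC and 0.01, 0.006 and −0.01 for 5mC. With 3 libraries per state these values cannot show whether the numbers pair the samples. With a replicate block 10 member 5hmC regions were higher and 17 lower, and 11 and 1 in 5mC. Over all regions the block gave 76021 and 64403 in 5hmC, and 23201 and 24047 in listed 5mC. Counts of 4 to 240 per 5hmC region and library limit what single regions can show.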
